A study of Mus musculus with 119 samples.

Results

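Satellite cells, the stem cells of skeletal muscle, from old mice labelled as a triple knockout of FoxO1, FoxO3a and FoxO4 (KO) were compared with cells from old wild-type (WT) mice. The comparison holds 6 of the 119 samples of the series, 3 labelled KO and 3 labelled WT, taken as the count table whose title and columns name the genotypes and 22 months. The series asks how FoxO factors bear on the quiescence of satellite cells, and its 13 experiments set ages, CD34 levels and FoxO genotypes against each other. The labels call all 6 samples old, give skeletal muscle as the tissue and put a dash in the treatment field, and the age of 22 months comes from the table alone. The Cre driver, the deleted exons, any use of tamoxifen in these mice, the strain and the sex are not stated in the labels, nor is the meaning of the letters APP in the title of the table. Nothing in the labels ties the 3 samples of a group to 3 different mice. The p-values therefore measure the spread of these libraries, and some of that spread may be technical.

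FoxO proteins are transcription factors at the end of the insulin and insulin-like growth factor (IGF) pathway. When the kinase Akt is active it phosphorylates them and they leave the nucleus, and when Akt is quiet they bind DNA and switch on genes for cell cycle arrest, antioxidant defence, autophagy and apoptosis. Resting satellite cells lie under the basal lamina of the muscle fibre in a quiescent state, in which they carry the transcription factor Pax7 and the surface sialomucin CD34.

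Cells were sorted from dissociated, uninjured muscle as negative for CD45 (leukocytes), CD31 (endothelium) and Sca-1 (fibroblast-like and endothelial cells) and positive for α7-integrin and CD34, with no split by CD34 level. RNA was taken right after the sort, and cDNA was amplified with a SMART-Seq low-input kit before Nextera XT library preparation. Libraries are named here by genotype and the number in their column (WT 07, WT 17, WT 18, KO 01, KO 03, KO 08). Total counts were 27.29, 57.74 and 49.55 M in the libraries labelled WT and 16.04, 21.54 and 19.98 M in those labelled KO, so every KO-labelled library was shallower than every WT-labelled one. Pairs of libraries within a group had correlations of log2 counts from 0.892 to 0.941, and pairs between groups from 0.826 to 0.93. No pair agreed within sampling noise, which does not show that the libraries came from different mice. Each library was counted as 1 sample. Levels are CPM, counts scaled to a common library total, and fold changes are KO over WT on the log2 scale with their standard error (SE).

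No loss of the targeted genes was called in the KO-labelled libraries at 22 months. Counts over whole genes may miss the deletion of part of a gene. Foxo1 (chr3:52268336-52353221, mm10) stood at 62.1, 51.5 and 32.4 CPM in WT 07, WT 17 and WT 18 and at 47.0, 24.4 and 28.8 CPM in KO 01, KO 03 and KO 08. The KO-labelled range overlapped that of the WT-labelled libraries, and the log2 fold change was -0.54 ± 0.35 (SE, n = 3 against 3, adjusted p = 0.492, edgeR's quasi-likelihood test with Benjamini-Hochberg adjustment over all genes tested, as throughout). Foxo4 (chrX:101254528-101260873) stood at 49.3, 34.6 and 20.4 CPM against 27.3, 15.7 and 16.7 CPM. Its groups overlapped too, with a log2 fold change of -0.80 ± 0.38 (adjusted p = 0.348). For both Foxo1 and Foxo4 the overlap came from KO 01, while KO 03 and KO 08 lay below every WT-labelled library. Foxo3 (chr10:42181841-42276755), which encodes FoxO3a, stood at 30.4, 13.2 and 6.32 CPM against 35.1, 32.1 and 37.6 CPM. Every KO-labelled library was above every WT-labelled one, and the log2 fold change of 1.08 ± 0.50 did not pass the test (adjusted p = 0.331). Foxo6, the family member that is not targeted, had a log2 fold change of 1.09 ± 0.68 (adjusted p = 0.481).

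The same counts showed a loss in younger mice of the series. At 21 days of age, with 4 KO and 3 WT libraries, Foxo1 lay between 7.91 and 13.6 CPM in KO and between 90.9 and 99.3 CPM in WT, a log2 fold change of -3.17 ± 0.22 (adjusted p = 1.56e-05). Foxo4 lay between 4.26 and 5.18 CPM against 78.5 to 91.4 CPM there, a log2 fold change of -4.15 ± 0.19 (adjusted p = 3.67e-07). In young mice 30 days after tamoxifen, with 2 KO and 3 WT libraries, Foxo1 changed by -2.76 and Foxo4 by -4.27 (adjusted p = 0.0268 for each). In old mice 4 days after tamoxifen, with 2 libraries of each genotype, Foxo1 was at 77.3 and 29.3 CPM in WT and 25.8 and 21.8 CPM in KO. Foxo4 was at 43.1 and 8.67 CPM against 5.98 and 6.67 CPM there. The same WT library was the lower for both genes and lay near the KO libraries. Fitted together, the KO effect at 22 months was less negative than at 21 days by 2.55 ± 0.40 for Foxo1 (adjusted p = 0.0261) and by 3.27 ± 0.40 for Foxo4 (adjusted p = 0.00917). The Foxo1 difference was 2.24 without KO 01 (adjusted p = 0.0618). Foxo3 was not lower in KO in any of the 4 experiments, with log2 fold changes from 0.15 to 1.08, so its whole-gene count does not check the label. Below, libraries are called KO-labelled and WT-labelled, and directions are those of the labels.

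**Figure D1:**
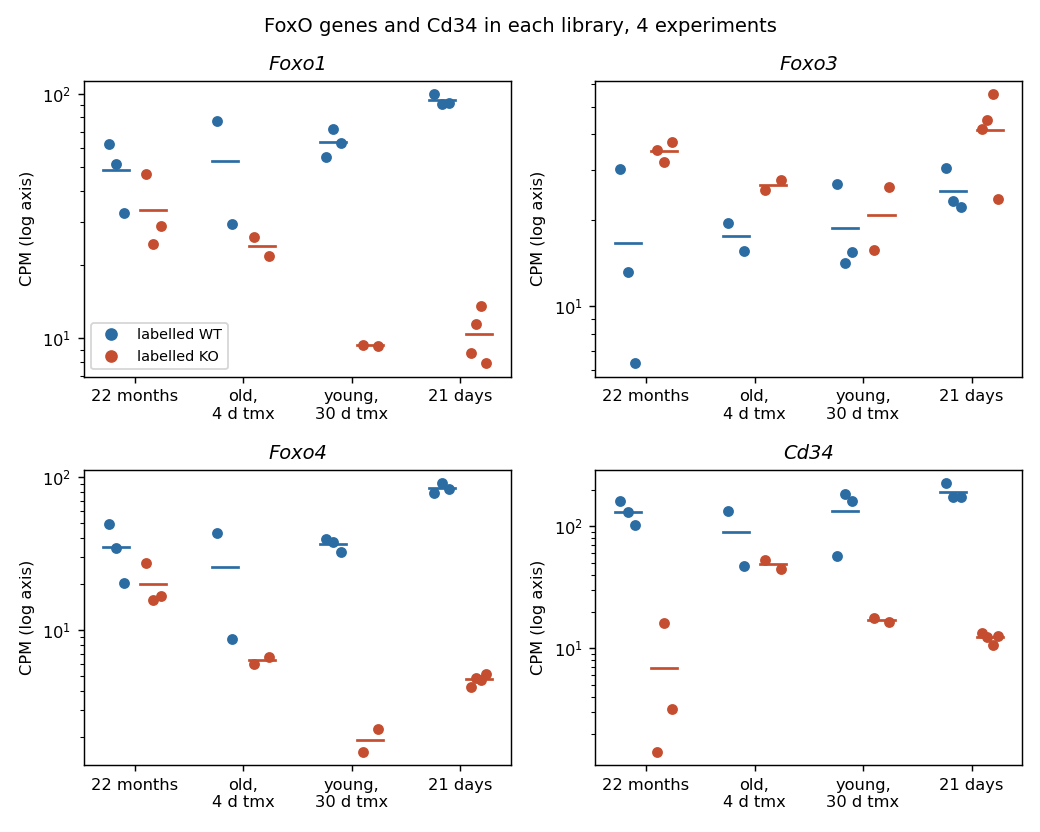
Level of Foxo1, Foxo3, Foxo4 and Cd34 in each library (points, CPM on a log axis) of 4 experiments comparing KO with WT, with the group mean as a line (tmx, tamoxifen). At 21 days Foxo1 was 90.9 to 99.3 CPM in WT and 7.91 to 13.6 CPM in KO, while at 22 months the groups overlapped for Foxo1 and Foxo4 and did not overlap for Cd34.

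Of 13373 genes tested, 141 passed an adjusted p of 0.05 (1.05%), 105 of them higher (0.785%) and 36 lower (0.269%) in the KO-labelled libraries, and 2114 had an unadjusted p under 0.05. The groups did not overlap for 3195 genes (23.9%), and the median log2 fold change over all genes tested was 0.02. The 141 calls leaned on single libraries: 339 genes passed without WT 17, 107 without WT 07, 55 without KO 03, 39 without WT 18, 13 without KO 01 and 11 without KO 08. With 2 libraries in a group, the smaller group is assumed to vary like the other. In each of the 6 omissions 8 genes passed, namely Ifi202b, Dlk1, Car3, Igfbp5, Lif, Dpysl3, Sparcl1 and Tns1, and all 8 were higher in the KO-labelled libraries. Of the 24 genes with the largest changes by the naming rule (12 each way, at least 8 CPM on average, no overlap), 14 passed without WT 07, 24 without WT 17, 13 without WT 18, 5 without KO 01, 16 without KO 03 and 5 without KO 08, with adjusted p up to 0.167. No call changed its direction in any of these fits.

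**Figure D2:**
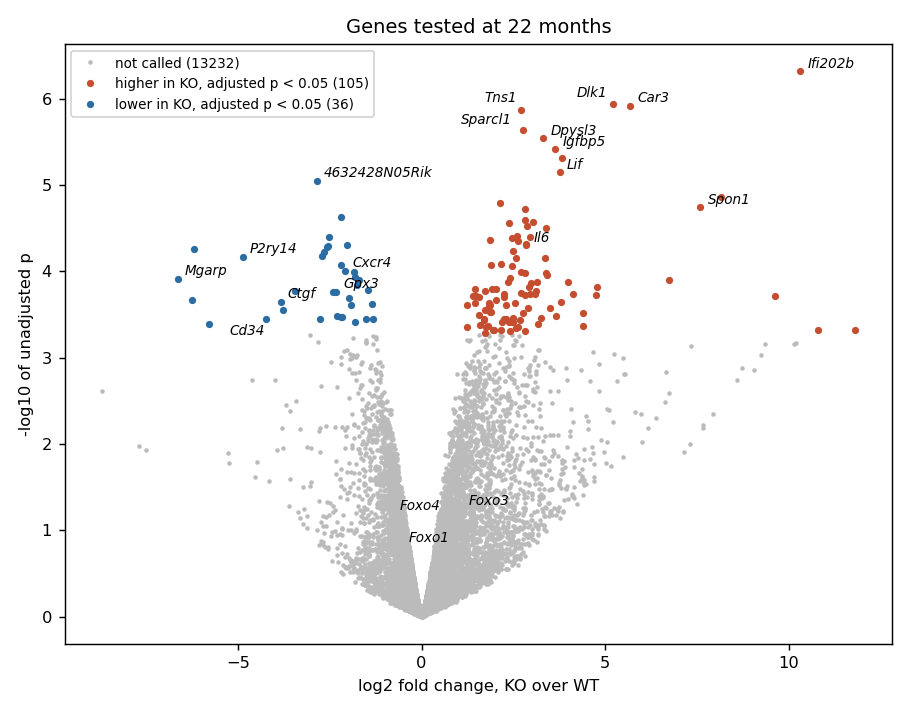
Each point is 1 of the 13373 genes tested, placed by its log2 fold change (KO over WT) and the -log10 of its unadjusted p. The 105 genes called higher reach further from 0 than the 36 called lower, with Ifi202b at 10.31, and Foxo1, Foxo3 and Foxo4 lie among the genes not called.

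The largest rise was that of Ifi202b, an interferon-inducible gene of the Ifi200 family of DNA-sensing and DNA-binding proteins. Ifi202b (chr1:173962568-173982744, mm10, minus strand) was at 0.756, 0.278 and 0.0424 CPM in the WT-labelled libraries and at 453.1, 556 and 226 CPM in the KO-labelled ones. In reads, these were 20, 16 and 2 against 7996, 11705 and 4558. Ifi202b thus passed the filter on low counts only through the KO-labelled group, where it is high. The log2 fold change was 10.31 ± 0.85 (adjusted p = 0.00445). Of the 11 genes tested in the window of 1 Mb to each side of Ifi202b, itself included, 4 were called higher, beside 0.785% of all genes, and they are the family members Ifi202b, Ifi203, Mndal and AI607873. Ifi203 was at 6.65, 2.49 and 3.96 CPM against 48.9, 35.1 and 19.2 CPM, with a log2 fold change of 2.98 ± 0.48 (adjusted p = 0.0323). Mndal had 2.94 ± 0.50 (adjusted p = 0.0328) and AI607873 had 2.40 ± 0.46 (adjusted p = 0.0468). These neighbours are near copies of each other, and Mndal overlaps Ifi203, so reads may have been split between them. Without KO 01, KO 03 or KO 08 none of the 3 neighbours passed (adjusted p up to 0.171), and 1 passed without WT 07, 1 without WT 18 and 2 without WT 17, while Ifi202b passed each time.

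At 21 days Ifi202b also separated KO from WT, at far lower levels. It lay between 1.67 and 4.77 CPM in KO and between 0 and 0.0884 CPM in WT (adjusted p = 0.00333). In young mice 30 days after tamoxifen it was at 3.52 and 1.65 CPM in KO. The WT libraries there were at 0.103, 0 and 0 CPM, again without overlap. In old mice 4 days after tamoxifen (2 libraries of each genotype) it was at 3.80 and 0.909 CPM in KO and at 2.95 and 5.03 CPM in WT, where the groups overlapped. The KO effect at 22 months exceeded that in those mice by 11.02 ± 1.18 on the log2 scale (adjusted p = 0.0123, and 0.0880 without KO 01). As background, levels of Ifi202b are known to differ between inbred strains of mice. The list of 50 tested interferon response and antigen presentation genes had 0 calls and a median log2 fold change of 0.62, with 42 of the 50 positive. For 8 of them the groups did not overlap, all higher in the KO-labelled libraries, beside 23.9% of all genes.

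Dlk1, a membrane protein of the Delta-like group and a product of an imprinted locus, also rose from a low level. Dlk1 (chr12:109452823-109463336, plus strand) was at 4.80, 6.64 and 8.29 CPM in the WT-labelled libraries and at 167, 411 and 155 CPM in the KO-labelled ones. The lowest KO-labelled library was far above the highest WT-labelled one, and the log2 fold change was 5.21 ± 0.48 (adjusted p = 0.00445). Dlk1 was also higher in KO at 21 days (106 to 208 CPM in WT and 399 to 967 CPM in KO, log2 fold change 2.06, adjusted p = 0.00524) and in young mice 30 days after tamoxifen (8.08 to 10.1 CPM against 41.1 and 62.5 CPM, 2.50, adjusted p = 0.0416). In old mice 4 days after tamoxifen the Dlk1 groups overlapped (12.2 and 34.3 CPM against 32.1 and 24.7 CPM). The WT library at 34.3 CPM was the one with the lower Foxo1 and Foxo4.

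FoxO proteins bind the core letters GTAAACA, and the 250 bases before the start of each gene were searched for them and for the related letters CAAAACA on either strand (RefSeq promoters, GRCm38.p6). GTAAACA was found in 1.98% of the 10509 tested genes with a promoter in the table, in 2 of 74 genes called higher (2.70%, exact 95% binomial interval 0.329% to 9.42%) and in 0 of 28 called lower (upper bound 12.3%). CAAAACA was found in 3.64% of all, in 3 of 74 called higher (4.05%) and in 2 of 28 called lower (7.14%). The 2 higher genes with GTAAACA were Dlk1, with 2 matches, and Il33, which encodes an alarmin cytokine and is described below. Both promoters are printed here since they hold every GTAAACA match among the called genes, with Ifi202b beside them as the gene with the largest rise and 1 match of CAAAACA. They are chr12:109452573-109452822 (plus strand) for Dlk1, chr19:29924863-29925112 (plus strand) for Il33 and chr1:173982845-173983094 (minus strand) for Ifi202b. Each runs 5′ to 3′ along the gene's strand, and capitals mark the match, which reads TGTTTAC where it lies on the other strand.
Dlk1: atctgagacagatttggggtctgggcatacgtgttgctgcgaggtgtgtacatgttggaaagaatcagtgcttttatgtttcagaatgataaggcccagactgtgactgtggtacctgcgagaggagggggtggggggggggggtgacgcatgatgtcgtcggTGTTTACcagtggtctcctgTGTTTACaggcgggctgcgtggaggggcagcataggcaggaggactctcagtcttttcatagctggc
Il33: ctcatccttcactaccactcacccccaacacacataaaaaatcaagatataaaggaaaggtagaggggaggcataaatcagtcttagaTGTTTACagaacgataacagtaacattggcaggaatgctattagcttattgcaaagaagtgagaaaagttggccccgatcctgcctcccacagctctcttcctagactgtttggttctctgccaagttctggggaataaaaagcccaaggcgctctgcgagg
Ifi202b: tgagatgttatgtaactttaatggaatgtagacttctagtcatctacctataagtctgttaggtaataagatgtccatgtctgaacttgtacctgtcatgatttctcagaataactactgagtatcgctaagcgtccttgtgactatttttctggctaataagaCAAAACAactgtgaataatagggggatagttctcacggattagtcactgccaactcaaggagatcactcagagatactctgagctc
The matches begin 87 and 67 bases before the start in Dlk1, 162 bases before it in Il33 and 86 bases before it in Ifi202b. A match describes the letters in this window and says nothing of binding.

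The other genes that passed in all 6 omissions encode secreted or cytoskeletal proteins and 1 enzyme. Igfbp5, which encodes a secreted protein that binds IGFs, was at 463, 641 and 374 CPM in the WT-labelled libraries and at 5702, 8886 and 3939 CPM in the KO-labelled ones (log2 fold change 3.65 ± 0.38, adjusted p = 0.00734). The groups were far apart, and Igfbp5 was the most abundant of these 8 genes. Lif, a cytokine of the interleukin-6 family, was at 11.2, 10.4 and 5.70 CPM against 98.5, 81.4 and 190.4 CPM (3.77 ± 0.42, adjusted p = 0.0105). Sparcl1, a matricellular protein, was at 34.4, 48.5 and 32.6 CPM against 216, 286 and 278 CPM (2.75 ± 0.27, adjusted p = 0.00610). In each of these genes every KO-labelled library was above every WT-labelled one. Tns1, which encodes tensin 1, a link between integrin adhesions and actin, was at 48.6, 41.9 and 33.0 CPM against 269, 277 and 258 CPM (2.70 ± 0.25, adjusted p = 0.00445). Dpysl3, a regulator of the cytoskeleton in growing neurites, was at 10.5, 20.8 and 15.2 CPM against 165, 183 and 115 CPM (3.31 ± 0.34, adjusted p = 0.00643). Car3, a carbonic anhydrase abundant in slow muscle fibres and fat, was at 0.643, 1.48 and 0.848 CPM against 65.5, 63.2 and 26.1 CPM (5.67 ± 0.52, adjusted p = 0.00445).

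In the IGF pathway above FoxO, the genes called were of IGF binding proteins. Of 44 tested genes of the IGF, PI3K and Akt list, 2 were called higher (4.5%, beside 0.785% of all genes) and 0 lower, with a median log2 fold change of 0.12. The 2 were Igfbp5 and Igfbp3, another IGF binding protein, at 9.34, 30.7 and 9.79 CPM against 123, 102 and 204 CPM (3.10 ± 0.52, adjusted p = 0.0328). Pappa, a protease that cuts IGF binding proteins and is not in the list, was at 1.81, 1.76 and 1.04 CPM against 88.8, 8.13 and 28.1 CPM (4.76 ± 0.80, adjusted p = 0.0328). The KO-labelled libraries differed widely for Pappa and still did not overlap the WT-labelled ones. Pik3r1, a regulatory subunit of PI3K, was at 51.8, 44.9 and 18.5 CPM against 115, 102 and 116 CPM and did not pass (1.53 ± 0.37, adjusted p = 0.0845). Without WT 07, WT 18, KO 01 or KO 08 neither Igfbp3 nor Pappa passed (adjusted p up to 0.126), and without KO 03 Igfbp3 did not (0.0567). Pappa did not pass limma-voom either (0.0857).

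A few known FoxO target genes were called, beside 1.05% of all genes. In the cell cycle and DNA damage targets 1 of 14 was called, Ccnd2, a D-type cyclin that FoxO factors are known to repress. Ccnd2 was at 7.26, 7.91 and 11.9 CPM in the WT-labelled libraries and at 36.7, 51.3 and 33.6 CPM in the KO-labelled ones (2.17 ± 0.33, adjusted p = 0.0273). Among 14 antioxidant targets 1 was called, Gpx3, an extracellular glutathione peroxidase, at 3133, 2188 and 3655 CPM against 343, 533 and 912 CPM (-2.33 ± 0.39, adjusted p = 0.0328). Among 8 apoptosis targets 1 was called, Pmaip1, which encodes the BH3-only protein Noxa, at 43.9, 38.7 and 28.1 CPM against 4.53, 8.46 and 6.26 CPM (-2.52 ± 0.35, adjusted p = 0.0225). Ccnd2 rose, and Gpx3 and Pmaip1 fell, with no overlap between groups in any of them. The summed level of the antioxidant targets, Gpx3 included, was 3422 to 4526 CPM in the WT-labelled and 1439 to 2322 CPM in the KO-labelled libraries. The list did not fall as a group: the median log2 fold change of its 14 tested members was 0.05, with 7 of them positive. None of the 3 passed without KO 01 or without KO 08 (adjusted p up to 0.0941), Gpx3 also not without WT 07 (0.0508) and WT 18 (0.104), and Ccnd2 and Gpx3 not without KO 03 (up to 0.0952). With the spread shared over the 4 experiments Ccnd2 did not pass (0.134).

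In the other target groups no gene was called by edgeR. Of 21 autophagy and protein breakdown targets 0 passed and the median was -0.39, and the groups did not overlap for 12 of them, 10 lower and 2 higher, beside 23.9% of all genes. Their summed level was 5692 to 5891 CPM in the WT-labelled and 3221 to 4777 CPM in the KO-labelled libraries, without overlap. Of 21 insulin and metabolism targets 0 passed, with a median of -0.01. Pdk4, a kinase that restrains glucose oxidation and a classic FoxO target, was at 530, 447 and 161 CPM against 173, 123 and 55.4 CPM (-1.69 ± 0.51, adjusted p = 0.143), and its groups overlapped. Cited2, a transcriptional co-regulator among these targets, was at 194, 254 and 273 CPM against 85.6, 110.3 and 107 CPM (-1.25 ± 0.25, adjusted p = 0.0508). Cdkn1b, the cell cycle inhibitor p27, had a log2 fold change of -0.19 ± 0.34 (adjusted p = 0.829) and Cdkn1a, the inhibitor p21, had 0.70 ± 0.26 (adjusted p = 0.228).

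Genes of the quiescent satellite cell were called in both directions. Of 51 tested, 3 fell (beside 0.269% of all genes) and 1 rose (beside 0.785%), with a median of -0.28. Cd34, which encodes the sialomucin used in the sort, was at 162, 131 and 104 CPM in the WT-labelled libraries and at 1.42, 16.3 and 3.18 CPM in the KO-labelled ones (-4.24 ± 0.78, adjusted p = 0.0410). The groups did not overlap, although all cells had been sorted as CD34-positive. Tek, the angiopoietin receptor Tie2, was at 175, 90.4 and 81.3 CPM against 11.9, 22.9 and 20.1 CPM (-2.66 ± 0.39, adjusted p = 0.0232). Cxcr4, a chemokine receptor, was at 548, 432 and 593 CPM against 76.5, 132 and 166 CPM (-2.07 ± 0.32, adjusted p = 0.0301). The gene that rose is Tns1, above. Cd34 was not called without WT 07 (adjusted p = 0.0557), WT 18 (0.0962), KO 01 (0.0929) or KO 08 (0.159). Tek and Cxcr4 were not called without KO 01, KO 03 or KO 08, nor Cxcr4 without WT 18, with adjusted p between 0.0563 and 0.0961. Cd34 fell by 3.97 on the log2 scale at 21 days (175 to 226 CPM in WT, 10.7 to 13.5 CPM in KO, adjusted p = 3.67e-07), and the 2 effects differed by -0.34 ± 0.74 (adjusted p = 0.857). In young mice 30 days after tamoxifen Cd34 was at 57.2 to 183 CPM in WT and 16.4 and 17.7 CPM in KO and was not called (adjusted p = 0.0887). In old mice 4 days after tamoxifen its groups overlapped (133 and 47.2 CPM in WT, 53.5 and 44.5 CPM in KO), and the difference of the effects, -3.41 ± 1.06, did not pass (adjusted p = 0.510). The WT library at 47.2 CPM was the one with the lower Foxo1 and Foxo4.

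The lineage genes of satellite cells were detected in every library, and none was called. Pax7 was at 95.1, 25.6 and 11.1 CPM against 36.2, 49.8 and 32.2 CPM, the KO-labelled values lying within the WT-labelled range (-0.15 ± 0.64, adjusted p = 0.934). Myf5, a myogenic factor of committed satellite cells, was at 283, 255 and 209.7 CPM against 132, 141 and 143 CPM, without overlap (-0.84 ± 0.23, adjusted p = 0.117). Spry1, an inhibitor of fibroblast growth factor signalling needed for return to quiescence, was at 192, 613 and 409 CPM against 65.6, 99.4 and 143 CPM, also without overlap (-1.98 ± 0.44, adjusted p = 0.0735). Vcam1, an adhesion molecule of satellite cells, was at 469.6, 811 and 470.1 CPM against 841, 1011 and 1911 CPM (1.10 ± 0.37, adjusted p = 0.189). Myod1 was at 1827, 1708 and 1592 CPM against 1389, 2781 and 2961 CPM (0.48 ± 0.31, adjusted p = 0.508), and the calcitonin receptor Calcr had -0.62 ± 0.46 (adjusted p = 0.561). Itga7, the α7-integrin of the sort, had 0.32 ± 0.30 (adjusted p = 0.654). Notch pathway genes, which hold satellite cells in quiescence, gave 0 calls among 36 (median 0.07), and myogenic commitment genes 0 calls among 35 (median 0.65). Cell cycle genes gave 0 calls among 38, with a median of -0.46.

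Genes of the senescence and secretory phenotype made up the list with the most calls. Of 41 tested, 6 rose and 0 fell (14.6% against 0.785% of all genes called higher), and their median log2 fold change was 0.86. The 6 are the binding proteins Igfbp5 and Igfbp3, the cytokine Il6, the chemokine Ccl11, the phosphoprotein osteopontin (Spp1) and the protease urokinase (Plau). Il6 was at 7.34, 22.9 and 13.8 CPM against 116, 87.4 and 116 CPM (2.86 ± 0.41, adjusted p = 0.0225). Ccl11 was at 33.2, 15.8 and 20.6 CPM against 106, 79.6 and 168 CPM (2.35 ± 0.38, adjusted p = 0.0321). Plau was at 274, 425 and 201 CPM against 770.0, 1490.3 and 2136 CPM (2.29 ± 0.42, adjusted p = 0.0410). In all 3 every KO-labelled library was above every WT-labelled one. Spp1 was lower in level, at 2.19, 3.41 and 0.636 CPM against 35.9, 18.01 and 17.4 CPM (3.51 ± 0.62, adjusted p = 0.0369).

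Other secreted factors outside the list rose too, and they were chosen after their values were seen. Il33 was at 20.7, 22.9 and 26.9 CPM against 97.8, 179.6 and 296 CPM (3.02 ± 0.40, adjusted p = 0.0204). Fst, which encodes the activin and myostatin antagonist follistatin, was at 7.07, 9.80 and 3.50 CPM against 56.3, 36.9 and 123 CPM (3.40 ± 0.54, adjusted p = 0.0307). The matrix protease Mmp19 was at 61.7, 79.5 and 105 CPM against 1003, 359 and 541 CPM (2.95 ± 0.41, adjusted p = 0.0225). The groups stood apart in each. Il6ra, the receptor subunit for interleukin-6, also rose (2.49 ± 0.46, adjusted p = 0.0419). Of these 11 secretory genes with Lif and the IGF binding proteins, 6 passed without WT 07, 11 without WT 17, 3 without WT 18, 3 without KO 01, 7 without KO 03 and 2 without KO 08, with adjusted p up to 0.163.

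Extracellular matrix genes rose in a few members. Of 48 tested matrix and adhesion genes of the satellite cell niche, 4 rose (8.3%, beside 0.785% of all genes) and 0 fell, with a median of 0.74. Tnc, the glycoprotein tenascin C, was at 106, 275 and 204 CPM against 2881, 1336 and 806 CPM (3.10 ± 0.52, adjusted p = 0.0328). Nid1, the basement membrane protein nidogen 1, was at 101, 143 and 61.9 CPM against 755, 329 and 429 CPM (2.31 ± 0.41, adjusted p = 0.0353). Bgn, the proteoglycan biglycan, was at 264, 223 and 206 CPM against 931, 1069.8 and 586 CPM (1.90 ± 0.29, adjusted p = 0.0273). Lama5, a laminin chain, was the fourth, at 1.71 ± 0.31 (adjusted p = 0.0410). The 2 groups did not overlap in any of the 4. Outside the list, Spon1, the matrix protein F-spondin, was at 0.189, 1.34 and 1.42 CPM against 155, 47.9 and 392 CPM (7.59 ± 0.96, adjusted p = 0.0180). Spon1 passed the filter on low counts only through the KO-labelled group, where it is high. Vcan, the proteoglycan versican, was at 62.6, 26.8 and 51.3 CPM against 387, 253 and 355 CPM (2.82 ± 0.36, adjusted p = 0.0180). Lamc3, another laminin chain, was at 36.3, 28.5 and 29.97 CPM against 142, 129.8 and 309.6 CPM (2.62 ± 0.37, adjusted p = 0.0225). Of these 7 genes and Sparcl1, 5 passed without WT 07, 7 without WT 17, 3 without WT 18, 1 without KO 01, 4 without KO 03 and 2 without KO 08, with adjusted p up to 0.141, and Spon1 did not pass limma-voom (0.0610).

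**Figure D3:**
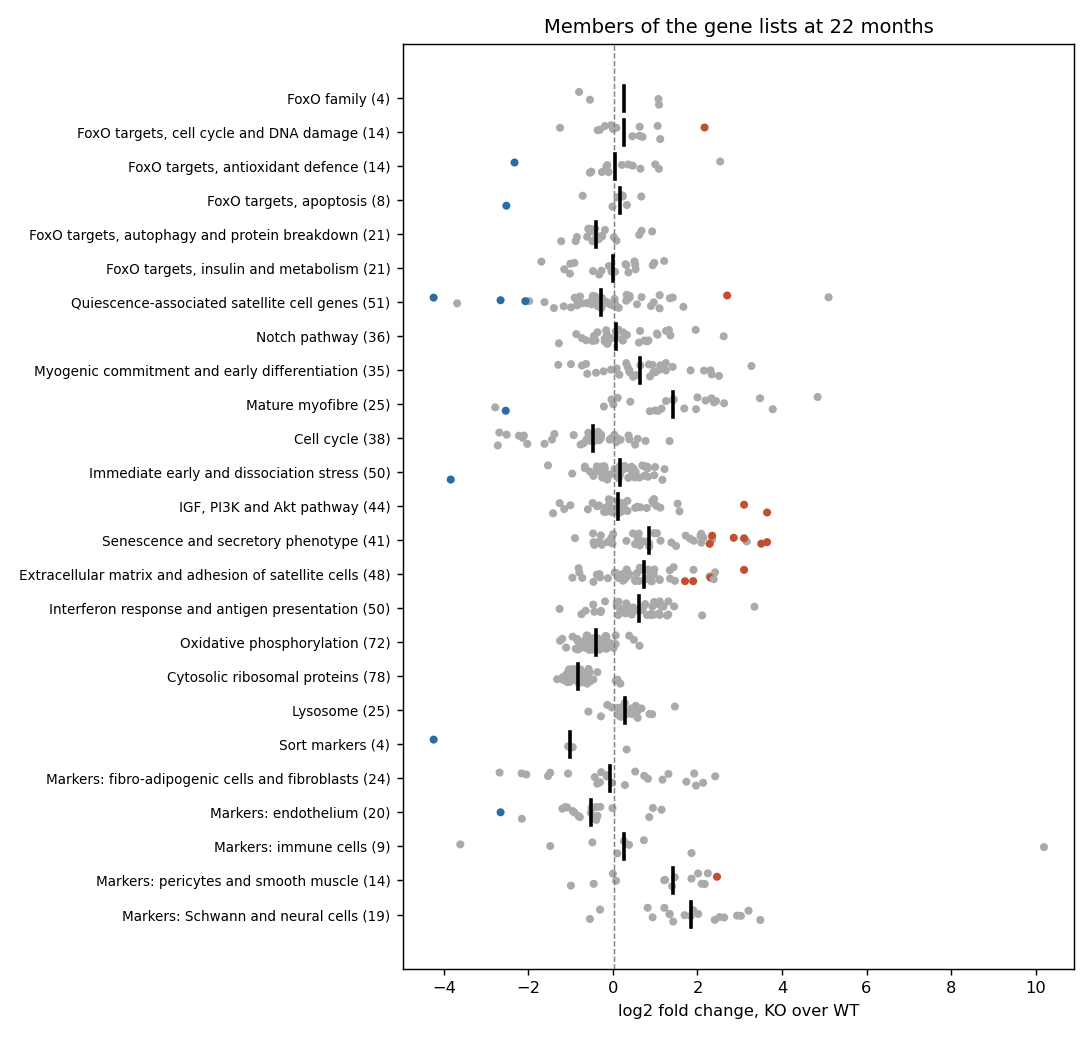
Log2 fold change (KO over WT) of each tested member of 25 gene lists, with the number tested in brackets, the median as a black bar and the median of all genes as a dashed line. Members called higher are red and members called lower blue, and the senescence and secretory list holds the most calls, 6 of 41.

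The largest falls by the naming rule, beside Cd34 and Tek, began with Mgarp and P2ry14. Ctgf, the matricellular protein CCN2 and a well-known YAP target, was at 1586, 1570.1 and 853 CPM in the WT-labelled libraries and at 37.6, 199.8 and 42.9 CPM in the KO-labelled ones (-3.84 ± 0.67, adjusted p = 0.0351). It was the 1 member called of 50 tested immediate early and dissociation stress genes, beside 0.269% of all genes called lower. The median of that list was 0.17. The lymphatic growth factor Vegfc was at 32.0, 27.7 and 23.3 CPM against 0.680, 2.90 and 4.07 CPM (-3.43 ± 0.57, adjusted p = 0.0328). P2ry14, a receptor for UDP-sugars, was at 18.8, 29.6 and 65.2 CPM against 1.98, 1.62 and 0.298 CPM (-4.87 ± 0.72, adjusted p = 0.0244). Mgarp, a mitochondrial membrane protein, was at 44.7, 6.38 and 9.85 CPM against 0, 0.285 and 0.298 CPM (-6.64 ± 1.06, adjusted p = 0.0319). All KO-labelled libraries were below all WT-labelled ones for these genes, as the naming rule required. Limma-voom called neither P2ry14 nor Mgarp, with adjusted p up to 0.344. P2ry14 and Mgarp passed the filter on low counts only through the WT-labelled group, where they are high.

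Bves and Popdc3, 2 of the Popeye family of cyclic AMP binding membrane proteins of striated muscle, both fell. They lie close together on the chromosome that also holds Foxo3, Popdc3 at chr10:45178098-45318452 and Bves at chr10:45335772-45372479 (mm10). Whether their falls are independent of each other was not tested. Bves was at 63.6, 50.5 and 59.4 CPM against 3.46, 15.8 and 6.31 CPM (-2.76 ± 0.51, adjusted p = 0.0410). Popdc3 was at 72.3, 78.9 and 78.01 CPM against 7.93, 19.5 and 7.40 CPM (-2.72 ± 0.40, adjusted p = 0.0244). Their WT-labelled values lay close together, and KO 03 was the highest of the KO-labelled libraries for each. Reads of 4632428N05Rik, the gene of the checkpoint protein VISTA, were at 67.8, 62.6 and 56.0 CPM against 11.5, 8.70 and 5.56 CPM (-2.86 ± 0.33, adjusted p = 0.0118). Srpx2, a secreted sushi-repeat protein, had -2.56 ± 0.37 (adjusted p = 0.0225). Mybpc1, the slow form of myosin binding protein C, was at 92.0, 58.0 and 46.1 CPM against 13.4, 12.7 and 7.65 CPM (-2.54 ± 0.36, adjusted p = 0.0225). It was the 1 member called of 25 tested mature myofibre genes, beside 0.269% of all genes called lower. The median of that list was 1.43. Of these 9 falling genes, 5 passed without WT 07, 9 without WT 17, 3 without WT 18, 1 without KO 01, 5 without KO 03 and 0 without KO 08, with adjusted p up to 0.167.

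The largest rises by the naming rule also held 6 genes of varied roles. Enpp6, a choline phosphodiesterase of new oligodendrocytes, was at 0.227, 0.0348 and 0 CPM against 18.1, 33.0 and 11.6 CPM (8.16 ± 1.00, adjusted p = 0.0168). Unc13c, a synaptic vesicle priming protein, was at 0.265, 0.487 and 0 CPM against 8.78, 49.9 and 24.6 CPM (6.75 ± 1.08, adjusted p = 0.0319). Enpp6 and Unc13c passed the filter on low counts only through the KO-labelled group, where they are high. Gria1, an AMPA glutamate receptor subunit, had 4.13 ± 0.70 (adjusted p = 0.0328), and Trpm3, a cation channel, had 4.38 ± 0.79 (adjusted p = 0.0395). Apod, a lipocalin of nerve and fibroblasts, was at 28.6, 59.8 and 39.4 CPM against 2278, 200.3 and 1009.6 CPM (4.77 ± 0.78, adjusted p = 0.0328). The KO-labelled libraries differed widely among themselves for Apod, with KO 01 highest and KO 03 lowest. Mcoln2, an endolysosomal cation channel, was at 1.40, 1.86 and 1.34 CPM against 15.5, 20.3 and 29.9 CPM (3.83 ± 0.41, adjusted p = 0.00812). Of these 6, 2 passed without WT 07, 6 without WT 17, 4 without WT 18, 1 without KO 01, 3 without KO 03 and 1 without KO 08 (adjusted p up to 0.139), and limma-voom did not call Enpp6 and Unc13c (up to 0.139).

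**Figure D4:**
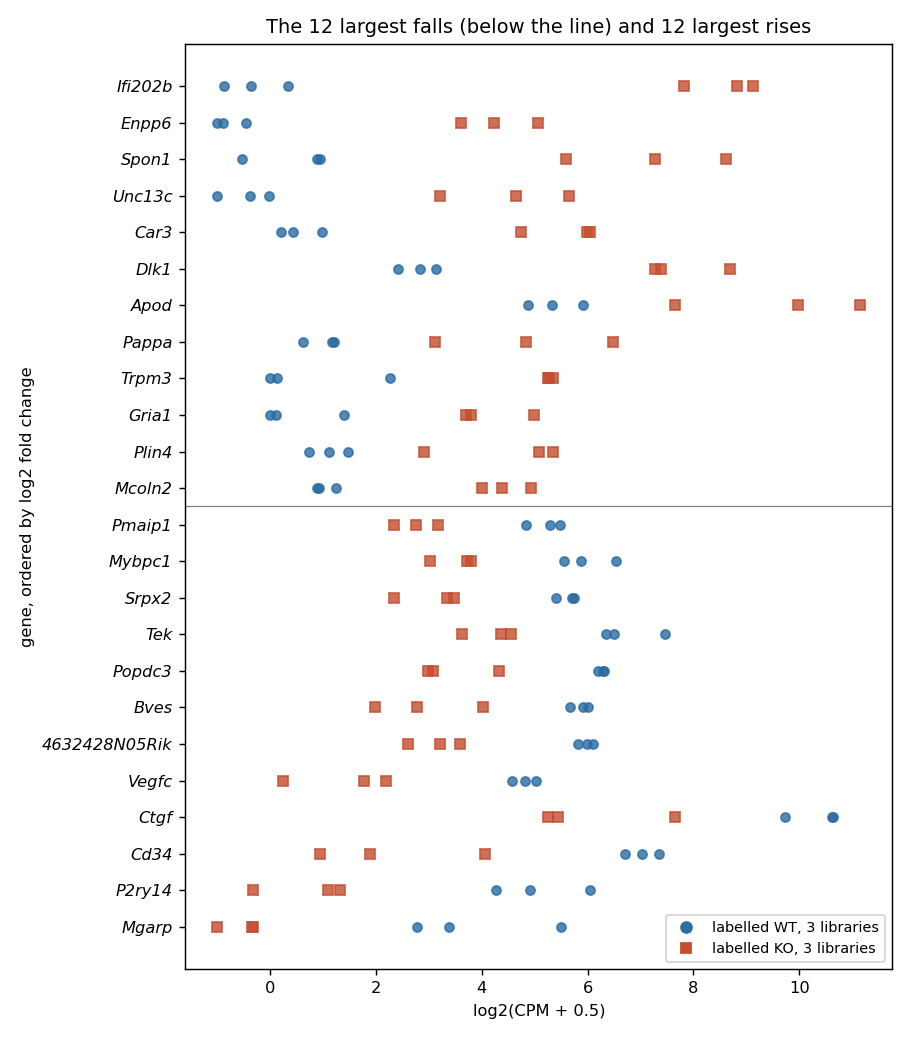
Log2(CPM + 0.5) of the 12 genes with the largest fall and the 12 with the largest rise, in each of the 3 WT-labelled libraries (circles) and the 3 KO-labelled libraries (squares). By the naming rule the groups do not overlap in any row, and the widest gap is that of Ifi202b.

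Markers of Schwann and neural cells had a higher summed level in the KO-labelled libraries, and none was called. Of 19 tested, 0 were called, the median log2 fold change was 1.84 and 9 did not overlap, all higher in the KO-labelled libraries, beside 23.9% of all genes. Their summed level ran from 646 to 2280.2 CPM in the WT-labelled libraries and from 3044 to 6073 CPM in the KO-labelled ones. Ngfr, a neurotrophin receptor of immature Schwann cells, was at 7.07, 282 and 79.4 CPM against 1654, 494 and 856 CPM (3.03 ± 1.01, adjusted p = 0.184). Sox10, the glial transcription factor, was at 0.718, 93.1 and 22.6 CPM against 505, 210.3 and 178 CPM (2.94 ± 1.15, adjusted p = 0.255). KO 01 was the highest library for both, as it was for Apod, and WT 07 was the lowest for Ngfr and Sox10. The part of these cells in the rises of Enpp6, Unc13c, Gria1 and Apod was not tested. In bulk RNA, more cells of a type and more RNA per cell cannot be told apart.

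Markers of fat cells, a list drawn up after Car3 and Plin4 had been seen, differed among the KO-labelled libraries. Plin4, a protein of the lipid droplet, was at 2.27, 1.16 and 1.65 CPM against 33.4, 7.03 and 40.02 CPM (3.99 ± 0.64, adjusted p = 0.0321), and Plin2, another, rose by 1.89 ± 0.34 (adjusted p = 0.0392). Cidec, another lipid droplet protein, was at 0 in the WT-labelled libraries and at 19.9, 0.428 and 21.7 CPM in the KO-labelled ones (adjusted p = 0.0467), and Hp, the gene of haptoglobin, was at 0 against 12.7, 0.428 and 7.94 CPM (adjusted p = 0.0467). Cidec and Hp passed the filter on low counts only through the KO-labelled group, where they are high, so their calls carry little weight. Neither was called without WT 07, WT 18, KO 01 or KO 08 (adjusted p from 0.0570 to 0.172) or by limma-voom (0.344 and 0.222). Cfd, the gene of adipsin, was not tested and was at 0, 0 and 0.021 CPM against 17.3, 0 and 33.8 CPM. Adipoq was at 0.227, 0 and 0.254 CPM against 4.87, 0 and 4.62 CPM, and Plin1 at 0 in the WT-labelled libraries against 3.51, 0 and 1.69 CPM. In KO 03 Adipoq, Plin1 and Cfd were at 0, while Car3 was at 63.2 CPM there. Pparg, the main regulator of fat cells, had 0.27 ± 0.45 (adjusted p = 0.817). The other tested members were not called either: Fabp4 had 0.95 ± 0.58 (adjusted p = 0.476), Lipe 0.35 ± 0.38 (0.714) and Cd36 -0.15 ± 0.84 (0.949). The groups overlapped for each of them. Without WT 18, KO 01 or KO 08 neither Plin4 nor Plin2 was called, and without WT 07 or KO 03 Plin2 was not (adjusted p up to 0.155), and limma-voom did not call Plin4 (0.0580).

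Among the other cell types the sort should remove, pericyte and smooth muscle markers gave 1 call of 14, beside 0.785% of all genes called higher. It was Pdgfrb, the receptor for platelet-derived growth factor on mural cells. Pdgfrb was at 9.98, 15.1 and 10.02 CPM against 96.3, 56.8 and 40.8 CPM (2.46 ± 0.38, adjusted p = 0.0274), and it was not called without WT 18 (adjusted p = 0.0850), KO 01 (0.0853), KO 03 (0.0567) or KO 08 (0.0597). The median of that list was 1.43, and its summed level overlapped between groups (1800.5 to 2424 CPM in WT-labelled and 1417 to 2449 CPM in KO-labelled libraries). Fibroblast markers gave 0 calls of 24, with a median of -0.08 and sums of 2741 to 4702 CPM against 5095 to 6514 CPM. Endothelial markers gave 1 call of 20, Tek, beside 0.269% of all genes called lower. Their median was -0.51, with sums of 159.7 to 582 CPM against 157 to 333 CPM. Of 29 immune markers 9 were tested and 0 called, the leukocyte gene Ptprc was at 0 in 5 of the 6 libraries, and no red blood cell marker was tested. Oxidative phosphorylation genes gave 0 calls of 72 (median -0.41) and lysosome genes 0 of 25 (median 0.28).

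Cytosolic ribosomal protein genes held a smaller share of the counts in the KO-labelled libraries, and none was called. Of 78 tested 0 passed, the median log2 fold change was -0.83, and 64 did not overlap, all lower in the KO-labelled libraries, beside 23.9% of all genes. They held 6.55%, 9.52% and 10.2% of all counts in WT 07, WT 17 and WT 18 and 4.13%, 5.81% and 5.30% in KO 01, KO 03 and KO 08. Rps14, the member with the largest fall, was at 645, 1049 and 1001 CPM against 210.0, 463 and 406 CPM (-1.32 ± 0.34, adjusted p = 0.106). The KO-labelled libraries were also those with the lowest totals. With all libraries thinned at random to the shallowest, an alternative chosen after the data were seen, the median was -0.82. Thinning leaves the expected ratio of genes at these levels unchanged, so this value was fixed in advance. Whether the smaller share goes with the lower totals was not tested.

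The 22-month calls were set beside 3 other experiments that compare KO with WT in cells not split by CD34 level, which share no samples with it. The KO comparisons of the series in mice of 8 days, in young Pax7ROSAYFP mice and in geriatric mice were not analysed here. At 21 days 290 of 14200 genes were called (2.04%). Of the 141 genes called at 22 months 138 were tested there, 103 had the same sign, and 34 were also called, all 34 in the same direction (19 higher and 15 lower). The share of all tested genes with the same sign was not computed, here or for the other experiments, so the same-sign counts have no background. The 34 are 24.6% of the 22-month calls tested at 21 days and 12.2% of the 278 calls of 21 days tested at 22 months. They include Ifi202b, Dlk1, Car3, Igfbp5, Lif, Spon1, Vcan, Igfbp3 and Tnc among the rises, and Cd34, Gpx3, Ctgf, Tek, Srpx2, Mybpc1 and 4632428N05Rik among the falls. The log2 fold change of Gpx3 was -4.35 at 21 days and -2.33 at 22 months, and that of Srpx2 was -3.80 and -2.56. In young mice 30 days after tamoxifen 14 of 13562 genes were called (0.103%), of the 141 137 were tested there, and 119 had the same sign with 4 called. In old mice 4 days after tamoxifen edgeR called 0 of 14304 genes (1665 at an unadjusted p under 0.05), and 104 of 139 had the same sign. A WT library of that experiment had Foxo1 and Foxo4 near the KO level, as given above.

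Some genes called at 22 months differed in their KO effect from 21 days by a test of the difference itself, which 14 of 14969 genes passed (0.0935%). These are separate experiments, so age cannot be told apart from other differences between them, such as the extent of the deletion. Beside Foxo1 and Foxo4, Popdc3 changed by -2.72 at 22 months and 0.32 at 21 days, and the difference was -3.11 ± 0.47 (adjusted p = 0.0243). Spon1 rose at both ages, by 7.59 and 1.98, with a difference of 5.52 ± 0.93 (adjusted p = 0.0334). Dpysl3 had 3.31 and 0.50, with a difference of 2.73 ± 0.46 (adjusted p = 0.0334), and Lamc3 had 2.62 and -1.04, with a difference of 3.59 ± 0.53 (adjusted p = 0.0237). Slc38a4, an amino acid transporter, was at 19.8, 6.85 and 5.32 CPM against 0.0567, 0 and 0.348 CPM at 22 months, and its KO effect was more negative than at 21 days by -5.62 ± 0.83 (adjusted p = 0.0237). Without KO 01 the differences of Popdc3, Spon1, Dpysl3 and Slc38a4 did not pass (adjusted p from 0.0618 to 0.0664), nor did those of Spon1 and Dpysl3 without WT 18 (0.0548 and 0.0551) or that of Spon1 without KO 08 (0.0567). The difference from young mice 30 days after tamoxifen was called by edgeR for 0 of 14768 genes (1165 at an unadjusted p under 0.05, and 54 by DESeq2), and that from old mice 4 days after tamoxifen for Ifi202b alone of 15067 (0.00664%).

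**Figure D5:**
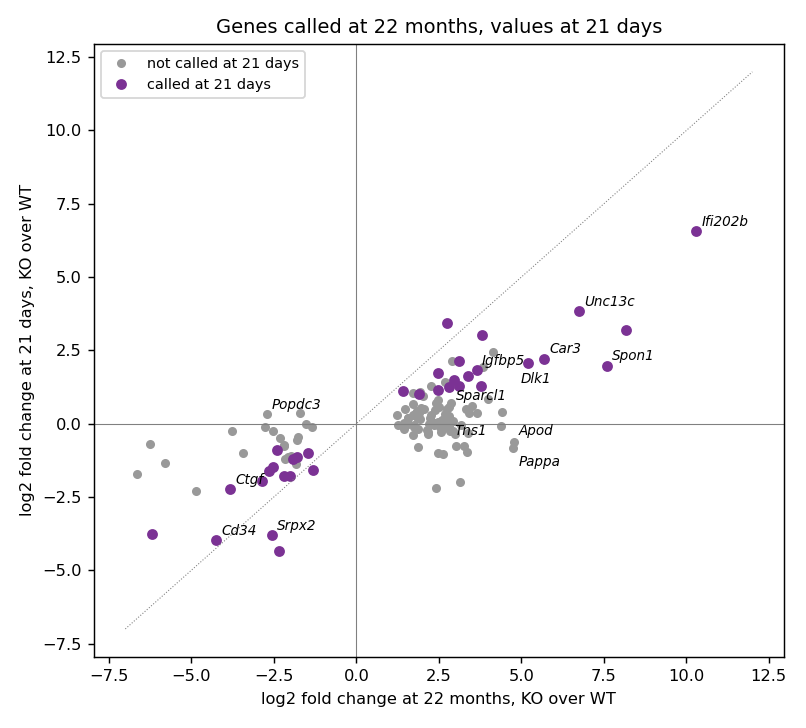
Genes called at 22 months, placed by their log2 fold change (KO over WT) at 22 months and at 21 days, with the 34 that were also called at 21 days in purple and a dotted line where both are equal. Ifi202b, Dlk1, Car3 and Spon1 lie below the line, with larger rises at 22 months, while Tns1 and Apod lie near 0 at 21 days.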

How the data were processed

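Bulk RNA-seq of sorted satellite cells was analysed. The deposited tables hold whole-number counts of reads for 24421 gene symbols, to which the authors had applied no scaling. The submitters' processing notes name mm10 as the build and list HTSeq, Partek 7.0, TopHat2 2.1.1, Trim Galore and bcl2fastq 2.17.1. Their order, the annotation and the strand setting were not stated in the labels. A column names its genotype but not its sample, so libraries were mapped to groups only, and 0 columns stayed unmapped.

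The counts of the 6 libraries were fitted in edgeR 4.0.16 (R 4.3.3) without covariates, with filterByExpr (minimum count 10, minimum total 15), TMM scaling, the quasi-likelihood F-test and Benjamini-Hochberg adjustment over all 13373 genes tested, and genes under 0.05 were called. CPM were computed from the deposited counts and the TMM-scaled totals, and 1 read was worth 0.0174 to 0.0567 CPM. Genes low or absent in 1 group passed the filter only through the other group, so their calls depend on the group where they are high. Among them are Ifi202b, Enpp6, Unc13c, Spon1, Mgarp, P2ry14, Slc38a4, Cidec and Hp. Differences between experiments are interaction terms of joint fits. The procedure was tested on simulated data. All 6 libraries held Y-linked reads (Ddx3y at 91.1 to 473 CPM) and almost none of Xist (0 to 0.695 CPM), so sex was not a covariate.

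The genes named are the 12 largest rises and 12 largest falls among called genes with a mean of at least 8 CPM and no overlap between groups, the FoxO, sort and satellite cell genes, and up to 5 members of each of 26 lists by smallest p. Others are said to have been chosen after their values were seen. The members and lists were chosen with earlier results of these data known, and lists are described by counts and medians. Alternatives were other scalings and filters, DESeq2 1.42.0, limma-voom 3.58.1, a spread shared with 3 other experiments, thinning and leaving out each library. Gene positions are from GENCODE M21 on GRCm38, and promoter sequences are from RefSeq on GRCm38.p6, where 10509 of the 13373 genes matched. Intervals and floors cover counting error only.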

Additional observations from a re-analysis of the deposited data

Results flagged for a closer look

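Each gene here is listed because its KO effect at 22 months differed from its KO effect in another experiment of the series by a test of the difference itself (edgeR's quasi-likelihood test of the interaction, Benjamini-Hochberg adjustment over all genes tested). Values are differences of log2 fold changes, 22 months minus the other experiment. Age cannot be told apart from other differences between the experiments.

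Against mice of 21 days the difference was positive for 5 of the named genes. It was 3.27 ± 0.40 (SE) for Foxo4 (adjusted p = 0.00917) and 2.55 ± 0.40 for Foxo1 (adjusted p = 0.0261), both of them deleted genes by the labels. It was 3.59 ± 0.53 for the laminin chain gene Lamc3 (adjusted p = 0.0237), 2.73 ± 0.46 for Dpysl3 (adjusted p = 0.0334) and 5.52 ± 0.93 for the matrix protein gene Spon1 (adjusted p = 0.0334). The difference was -3.11 ± 0.47 for Popdc3 (adjusted p = 0.0243) and -5.62 ± 0.83 for the amino acid transporter gene Slc38a4 (adjusted p = 0.0237). Against old mice taken 4 days after tamoxifen, it was 11.02 ± 1.18 for Ifi202b (adjusted p = 0.0123).

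The Foxo4 and Lamc3 differences passed without each of the 6 libraries of 22 months in turn. Without KO 01 the other 6 did not: the values were 2.24 for Foxo1, -2.89 for Popdc3, 5.68 for Spon1, -5.28 for Slc38a4 (each adjusted p = 0.0618), 2.69 for Dpysl3 (adjusted p = 0.0664) and 10.94 for Ifi202b (adjusted p = 0.0880). The Spon1 difference also missed the threshold without WT 18 (5.81, adjusted p = 0.0548) and without KO 08 (4.53, adjusted p = 0.0567), and that of Dpysl3 without WT 18 (2.71, adjusted p = 0.0551).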

How the results depend on the processing

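With 3 libraries a group, the count of called genes depended on the setting, and the cause was not tested. Against 141 genes, DESeq2 called 960, limma-voom 234, a fit with no filter on low counts 455 and the shared spread 914, of which 577 were higher and 337 lower in KO. Leaving out 1 library at a time gave 11 to 339 genes, with 339 (295 higher, 44 lower) without WT 17, 107 without WT 07, 39 without WT 18, 13 without KO 01, 55 without KO 03 and 11 (all higher) without KO 08. The other scalings, the filter at 1 CPM and thinning to the shallowest library, which was chosen after seeing the data, gave 144 to 185. None of the 141 genes had the opposite sign under these settings. For the difference from old mice 4 days after tamoxifen, 1 gene became 8 with no filter, 131 with DESeq2 and 0 to 51 with a library left out. For that from young mice 30 days after tamoxifen, 0 became 9, 54 and 0 to 5. For that from mice of 21 days, 14 became 105, 659 and 3 to 508.

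Genes that were not called changed sign. With limma-voom the log2 fold change was 0.0096 for Pecam1 and 0.48 for Pax7. With a library left out it ran from -1.57 to 0.95 for Pecam1, -0.64 to 1.06 for Pax7, -3.70 to 0.60 for Ptprb, -1.79 to 0.40 for Ly6a, -0.46 to 0.090 for Cdkn1b and -0.50 to 1.52 for Myog, and the Cd34 difference from mice of 21 days ran from -1.93 to 0.14. The medians of 5 lists moved: 0.017 to 0.69 for FoxO targets of the cell cycle and DNA damage, -0.049 to 0.30 for FoxO targets of antioxidant defence, 0.53 to 0.86 for extracellular matrix, -1.68 to 0.23 for sort markers and -1.77 to 1.34 for endothelium. With 50 bases past the start added, 2.32% of promoters held GTAAACA and 4.06% held CAAAACA. No paired analysis was possible because the columns of the WT and KO groups share no replicate number. The KO libraries were the shallowest, where 1 read was worth up to 0.0567 CPM, so differences at levels of that order were not detectable.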

Other observations

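The genes below were chosen after their values were seen, and they stand for no group. Nes, the gene of the intermediate filament protein nestin, was at 42.8, 77.4 and 76.8 CPM in the WT-labelled libraries and at 461, 393 and 242 CPM in the KO-labelled ones (log2 fold change 2.48 ± 0.35, adjusted p = 0.0225 by edgeR). Map1a, which encodes a microtubule-associated protein, was at 9.53, 8.60 and 9.30 CPM against 77.0, 32.9 and 43.5 CPM (2.48 ± 0.36, adjusted p = 0.0232). The beta-tubulin genes Tubb4a (2.60 ± 0.36, adjusted p = 0.0225) and Tubb2b (1.45 ± 0.24, adjusted p = 0.0328) also rose. No library of one group overlapped the other for these 4 genes. The summed level of the Schwann and neural markers was also higher in the KO-labelled libraries (3044 to 6073 CPM against 646 to 2280.2 CPM), and its part in these rises was not tested. None of the 4 was called without WT 18 or without KO 01, with adjusted p up to 0.104 and 0.0766. Without KO 03 (adjusted p up to 0.0857) and without KO 08 (up to 0.143) 1 of the 4 was called, Map1a and Tubb4a in turn, and Tubb2b was not called without WT 07 (0.0557).

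Another 4 single genes, chosen in the same way, were lower. Ugcg, which encodes glucosylceramide synthase, was at 1265, 975 and 660.03 CPM against 232, 257 and 146 CPM (-2.19 ± 0.33, adjusted p = 0.0273). The leptin receptor gene Lepr (-2.17 ± 0.40, adjusted p = 0.0410), the interleukin 17 receptor gene Il17ra (-1.81 ± 0.34, adjusted p = 0.0419) and Cd200 (-1.32 ± 0.24, adjusted p = 0.0410) fell as well. None of these 4 was called without KO 01 or without KO 08, with adjusted p up to 0.148 and 0.174. Of the 4, Ugcg alone was called without WT 07 (adjusted p of the others up to 0.0644) and without WT 18 (up to 0.116), Il17ra alone without KO 03 (up to 0.0870), and Cd200 was not called without WT 17 (0.0517).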
